A study of Mus musculus with 18 samples.

Results

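The loci of 6 interferon regulatory factor genes (Irf1, Irf2, Irf4, Irf5, Irf7 and Irf8) were examined for binding of PU.1 and of 2 C/EBP proteins, C/EBPα and C/EBPβ, while pre-B cells were converted into macrophage-like cells. Each locus was the gene span in the mm9 genome (GENCODE vM1) with 50 kb on either side. In these windows, 773.1 kb in all, 125 bound sites were found of 76974 in the genome, and the 6 genes are 6 of 22367 protein-coding genes with such a window. The sites were spread unevenly: 43 lay at Irf2, 30 at Irf8, 18 at Irf4, 16 at Irf1, 11 at Irf7 and 7 at Irf5.

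The cells were mouse C10 cells, a derivative of the HAFTL pre-B cell line that carries C/EBPα fused to an estrogen receptor domain and marked with GFP. β-estradiol moves the fusion protein into the nucleus. The labels give 100 nM β-estradiol together with the cytokines CSF-1 and IL-3 (10 nM each) for induced cells, and 0.1% ethanol for control cells; the study's methods give another estradiol dose. C/EBPα was measured by chromatin immunoprecipitation and sequencing (ChIP-seq) at 0 h, 10, 30 and 60 min, and 3, 12, 24 and 48 h after induction (hpi for hours), and C/EBPβ and PU.1 at 0, 3, 12, 24 and 48 h. All 18 libraries come from this 1 line, with 1 library per factor and time point, so no difference below has a replicate check and none was tested. Values are reads within 200 bp of a site's centre per 10000000 reads of the library (per 10M), and the 95% intervals are exact Poisson intervals that cover counting error only.

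Interferon regulatory factors (IRFs) are transcription factors that recognise GAAA-rich DNA in interferon-stimulated response elements. Irf1 activates and Irf2 mostly antagonises interferon-responsive genes, Irf5 and Irf7 act downstream of Toll-like receptors, and Irf4 and Irf8 are the lymphoid and myeloid members that bind DNA together with PU.1 at composite ETS-IRF elements. Irf8 is required for normal monocyte and macrophage development and also acts in B cells, whereas Irf4 is best known for its part in pre-B and plasma cell differentiation. PU.1 is an ETS factor of both B cells and macrophages, and C/EBPα and C/EBPβ are bZIP factors that drive myeloid genes.

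After identical reads were merged, the C/EBPα libraries had between 5970869 and 24917810 reads. The C/EBPβ libraries were shallower (2903580 to 5844202), and the PU.1 libraries had between 6575348 and 11349746. The C/EBPα libraries of 10, 30 and 60 min were sequenced on another instrument, with 50-base reads, so for these libraries time and sequencer cannot be told apart. Reads had 36 bases in the other C/EBPα libraries and in those of PU.1, and 40 bases in those of C/EBPβ. The PU.1 library of 12 h called the most PU.1 sites in the genome (46879, against 25199 to 35902 in the other 4). It also had 21.12% of its reads within 200 bp of its own sites, against 14.21 to 16.31% in the other 4. Summed over the 93 PU.1 sites of the 6 loci, PU.1 was 5397 per 10M at 12 h, against 3816 to 4667 at the other times. A PU.1 value that is highest at 12 h at a single site is to be read beside this.

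The sequences below are 151 bases around the centre of 9 sites that carry the results, on the plus strand of mm9. Capitals mark matches, on either strand, to 7 short consensus sequences: C/EBP (TTGCNNAA), PU.1 (GAGGAAGT), the ETS-IRF composite element (GGAANNGAA), the interferon-stimulated response element (ISRE, GAAANNGAA), AP-1 (TGANTCA), RUNX (TGTGGTT) and EBF1 (TCCCNNGGG). The ETS-IRF and ISRE letters can overlap, as they do at the Irf2 start. They are shown because they are the strongest sites of a factor at their locus or, for Irf2 -0.2 kb, the bound gene start. The Irf4 +60.2 kb stretch has no match to any of the 7.
Irf8 -50.1 kb (C/EBPα centre, chr8:123210141-123210291): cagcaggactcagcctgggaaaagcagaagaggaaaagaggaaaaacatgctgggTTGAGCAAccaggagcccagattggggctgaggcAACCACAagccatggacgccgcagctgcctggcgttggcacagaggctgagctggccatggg
Irf8 -38.5 kb (C/EBPα centre, chr8:123221701-123221851): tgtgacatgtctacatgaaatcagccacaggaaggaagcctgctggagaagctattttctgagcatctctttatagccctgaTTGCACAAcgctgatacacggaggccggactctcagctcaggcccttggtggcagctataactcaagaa
Irf2 -0.2 kb (PU.1 centre, chr8:47824781-47824931): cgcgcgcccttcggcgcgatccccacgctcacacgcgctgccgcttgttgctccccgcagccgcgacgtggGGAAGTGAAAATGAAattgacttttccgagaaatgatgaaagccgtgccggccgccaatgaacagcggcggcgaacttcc
Irf2 +146.6 kb (C/EBPβ centre, chr8:47971671-47971821): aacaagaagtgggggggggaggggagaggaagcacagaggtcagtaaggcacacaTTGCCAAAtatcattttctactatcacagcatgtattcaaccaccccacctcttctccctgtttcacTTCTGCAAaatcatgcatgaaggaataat
Irf4 -46.3 kb (C/EBPα centre, chr13:30794686-30794836): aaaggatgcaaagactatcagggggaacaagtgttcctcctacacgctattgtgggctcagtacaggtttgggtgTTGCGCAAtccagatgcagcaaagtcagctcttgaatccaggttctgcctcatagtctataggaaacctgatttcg
Irf4 +60.2 kb (C/EBPα centre, chr13:30901201-30901351): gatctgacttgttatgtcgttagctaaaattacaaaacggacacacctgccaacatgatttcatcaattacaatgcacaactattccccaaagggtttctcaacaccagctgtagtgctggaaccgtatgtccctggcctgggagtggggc
Irf5 -2.2 kb (C/EBPβ centre, chr6:29474021-29474171): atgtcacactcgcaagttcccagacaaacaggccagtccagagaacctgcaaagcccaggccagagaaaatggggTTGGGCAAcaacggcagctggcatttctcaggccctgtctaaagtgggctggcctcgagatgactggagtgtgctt
Irf7 +1.5 kb (PU.1 centre, chr7:148450801-148450951): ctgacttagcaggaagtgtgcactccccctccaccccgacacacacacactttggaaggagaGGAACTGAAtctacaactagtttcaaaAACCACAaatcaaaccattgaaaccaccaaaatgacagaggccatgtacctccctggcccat
Irf1 +24.2 kb (PU.1 centre, chr11:53607621-53607771): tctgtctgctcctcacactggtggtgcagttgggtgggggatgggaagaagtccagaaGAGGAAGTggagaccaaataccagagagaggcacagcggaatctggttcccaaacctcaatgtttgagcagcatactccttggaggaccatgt

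A 200-bp bin was called bound in a library when 3 conditions held: a Poisson p of 1e-07 or lower against the library's mean, a density 4 times that of the 10 kb around it, and a Poisson p of 0.0001 or lower against those 10 kb. Bound bins of the 18 libraries at most 1 bin apart were joined into a site, named by the distance of its centre from the gene's outermost annotated start. By this measure Irf8 had 24.9 sites per 100 kb, and only 5 of the 22367 gene windows had more. Irf2 had 20.7 (74 windows had more), Irf4 15.3, Irf1 14.8, Irf7 10.6 and Irf5 6.07, beside a median of 4.7 over all windows. Of the 125 sites, 88 had a start of the IRF gene as their nearest annotated start and 37 that of another gene, so a site in a window need not act on the IRF gene.

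C/EBPα bound 60 of the 125 sites at some time, beside 29115 of 76974 in the genome. The number of called C/EBPα sites was 4 at 0 h (Irf8 -50.1 kb, Irf8 -34.2 kb, Irf2 +146.6 kb and Irf4 -46.3 kb), 16 at 10 min, 28 at 30 min, 37 at 60 min, 37 at 3 h, 25 at 12 h, 17 at 24 h and 18 at 48 h. The count was highest at 60 min and 3 h. However, the libraries of 10 min to 3 h held 11129639 to 24917810 reads and those of 12, 24 and 48 h 5970869 to 7956987. The part of depth in the calls was not tested. Over the genome, calls in the same order of time were 1856, 7166, 13139, 18649, 17554, 9385, 7412 and 6573 of 29115 C/EBPα sites, a similar rise and fall. The summed reads per 10M over the 60 sites were 414 at 0 h, 537 at 10 min, 1623 at 30 min, 1617 at 60 min, 1883 at 3 h, 1759 at 12 h, 1273 at 24 h and 1145 at 48 h. The sums include sites not called in that library. However, the 60 sites were selected by a call in at least 1 C/EBPα library, and 29 had no call after 3 h. Sums, medians and ratios over them therefore lean toward the libraries with the calls. All C/EBPα sites of the genome were selected in the same way. The sums at 60 min and 12 h include 205 and 348 from Irf8 -50.1 kb alone. The medians over the 60 sites were 15.4 at 60 min, 16.2 at 3 h, 15.1 at 12 h and 8.80 at 48 h, so those of 60 min and 12 h were close although fewer sites were called at 12 h. By 60 min, 34 of the 60 sites were at least 2-fold above 0 h and 1 at least 2-fold below; over all C/EBPα sites of the genome these shares were 59.8% and 4.10%. From 3 to 48 h, 28 sites were at least 2-fold lower and 1 higher, beside 49.0% and 6.78% in the genome. At 48 h against 0 h, 23 sites were at least 2-fold higher and 4 lower, beside 33.0% and 7.52%. The median log2 ratios of the 60 sites were 1.28, -0.79 and 0.51 for these 3 contrasts, and those of all sites 1.36, -0.98 and 0.46.

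**Figure D1:**
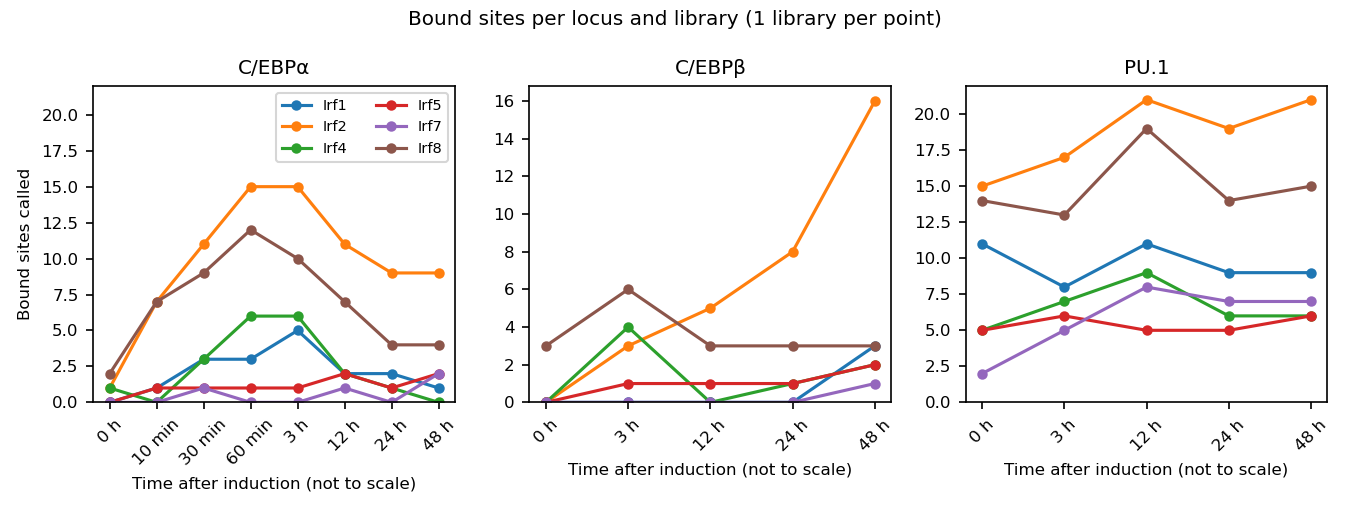
Number of bound sites called (y axis) in each library (x axis, time after induction, not to scale) at the 6 loci, in panels for C/EBPα, C/EBPβ and PU.1. Each point is 1 library. The C/EBPα curve of Irf2 is highest at 60 min and 3 h, with 15 sites, and that of Irf8 at 60 min, with 12. The C/EBPβ curve of Irf2 is highest at 48 h, with 16, and that of Irf8 at 3 h, with 6. Over the genome C/EBPα calls were also most numerous at 60 min and C/EBPβ calls at 48 h.

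Of the 60 C/EBPα sites, 29 were called from 10 min to 3 h and in none of the libraries of 12, 24 and 48 h, a share of 48.3% beside 57.9% in the genome. A call at 0 h was allowed and was found at Irf4 -46.3 kb. A missing call in a shallower later library need not be a lower value. Irf8 +24.1 kb, chosen after its values were seen, was 14.4 at 3 h, when it was called, and 18.4 at 24 h, when it was not. At 48 h it was lower, with a log2 ratio to 3 h of -1.22. Another 18 (30.0%, beside 22.6%) were called at 48 h, a number that was 9 with a count minimum 1.5 times higher. PU.1 was called at some time at 5 of the 29 sites without a later call (17.2%, beside 29.3% in the genome) and at 26 of the 31 sites called at 12, 24 or 48 h (83.9%, beside 68.8%). C/EBPβ was called at 9 of the 29 (31.0%, beside 18.7%) and at 20 of the 31 (64.5%, beside 64.9%). A C/EBP consensus match within 75 bp of the centre was present at 8 of 29 and 12 of 31 sites, beside 33.0% and 32.0% in the genome. The shares with PU.1 thus differed in the same direction at the IRF loci and over the genome.

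C/EBPβ bound 34 sites, of which 29 were also called for C/EBPα (85.3%, beside 78.3% in the genome). The 34 fell to 16 with a count minimum 1.5 times higher and to 22 with libraries thinned to the smallest of the factor. C/EBPβ was called at 3 sites at 0 h, 14 at 3 h, 9 at 12 h, 13 at 24 h and 27 at 48 h. Over the genome, calls in the same order were 713, 4771, 2576, 5438 and 12051 of 14093 C/EBPβ sites. The library of 12 h was the shallowest of all. At 48 h against 0 h, 24 of the 34 were at least 2-fold higher and 2 lower, beside 84.9% and 1.71% in the genome, and the median log2 ratios were 2.03 and 2.32. However, the 34 sites were selected by a C/EBPβ call at some time, for 27 of them at 48 h and for 3 at 0 h. The contrast therefore leans toward 48 h, and all C/EBPβ sites of the genome were selected in the same way. Scaling to reads away from bound sites would raise every C/EBPβ ratio of this contrast by 0.13 on the log2 scale. At 14 sites (41.2%, beside 43.8%) C/EBPβ was called at 48 h and at no earlier time.

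PU.1 bound 93 sites, the largest number of the 3 factors. It also bound the most over the genome, with 59215 sites beside 29115 for C/EBPα and 14093 for C/EBPβ. It was called at 52 sites at 0 h, 56 at 3 h, 73 at 12 h, 60 at 24 h and 64 at 48 h. Thus 52 of 93 (55.9%, beside 42.6% in the genome) were called in the pre-B cells before induction, and 35 (37.6%, beside 26.1%) at all 5 times. PU.1 was called at 0 h and not at 48 h at 13 sites (14.0%, beside 12.1%), and at 48 h and not at 0 h at 25 (26.9%, beside 26.6%). At least 2-fold differences were found at 14 sites upward and 1 downward at 3 h (14.7% and 4.31% in the genome), and at 24 upward and 16 downward at 48 h (24.5% and 15.4%). The median log2 ratio at 48 h was 0.08, beside 0.12 for all PU.1 sites. The PU.1 sites, here and in the genome, were also selected by a PU.1 call at some time.

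**Figure D2:**
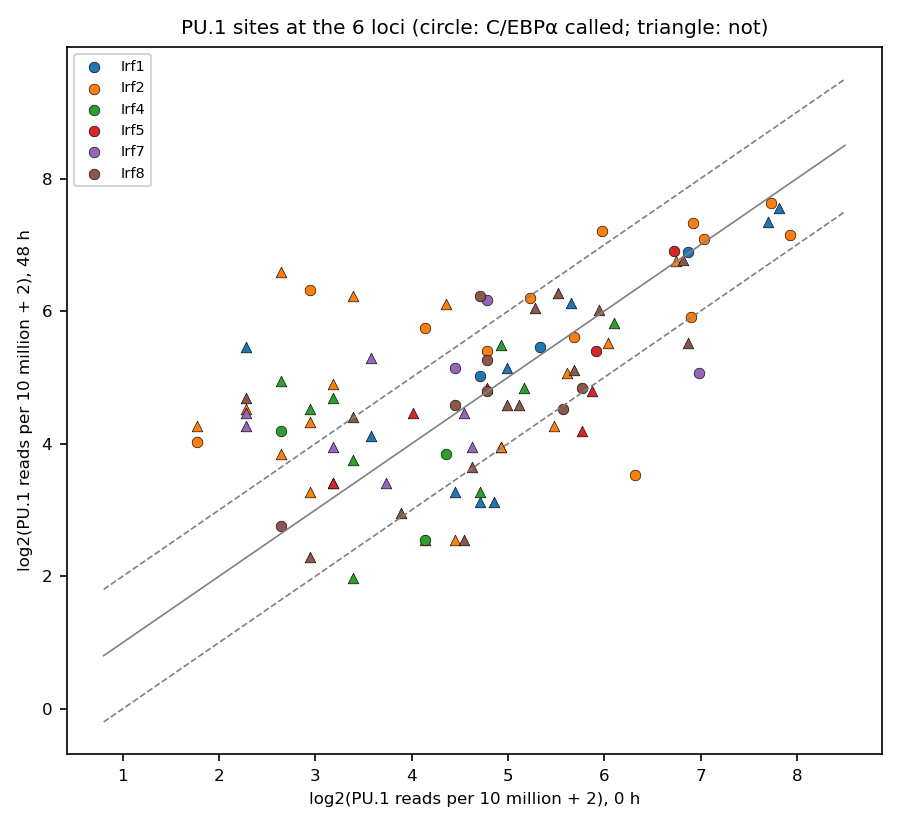
PU.1 at 0 h (x axis) against 48 h (y axis), as log2 of reads per 10M plus 2, at the 93 PU.1 sites, coloured by locus. Circles were also called for C/EBPα and triangles were not. The solid line marks equal values and the broken lines 2-fold differences, with 24 sites on or above the upper and 16 on or below the lower line.

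PU.1 was already present at 0 h at 20 of the 60 C/EBPα sites (33.3%, beside 24.5% in the genome) and was called at no time at 29 of them (48.3%, beside 54.3%). At the 31 sites called for both factors, PU.1 was called at an earlier time at 22 (71.0%, beside 53.3% in the genome), C/EBPα at 6 (19.4%, beside 34.9%), and both at the same time at 3. PU.1 was not measured between 0 and 3 h, so the order within that interval is not resolved for sites first called for PU.1 at 3 h. Every one of the 6 windows had a PU.1 site at 0 h, as did 71.6% of all gene windows, and 5 of the 6, all but Irf4, had a C/EBPα site at 48 h, as did 38.1%.

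Irf8 (chr8:123260258-123280594, plus strand) held the strongest C/EBPα site of the 6 loci. It lay 50.1 kb upstream (chr8:123209801-123210600) in an intron of the overlapping gene model Gm20388, 18006 bp from the start of Cox4i1, which encodes a cytochrome c oxidase subunit and is its nearest annotated start. Its centre lies just outside the 50-kb boundary, which the site overlaps. C/EBPα reads there were 16.9 at 0 h (95% interval 9.47 to 27.9), 69.8 at 10 min, 268 at 30 min, 205 at 60 min, 258 at 3 h, 348 at 12 h, 285 at 24 h and 238 at 48 h (205 to 274). The site was called in all 8 C/EBPα libraries, and its 12-h value ranked 16 among the highest values of 29115 C/EBPα sites in the genome.

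At the same site C/EBPβ was 11.7 at 0 h, 80.4 at 3 h, 51.7 at 12 h, 118 at 24 h and 138 at 48 h, and was called at all times but 0 h. PU.1 was 24.1 at 0 h, 144 at 3 h, 187 at 12 h, 108 at 24 h and 72.6 at 48 h. At 0 h C/EBPα was called there and PU.1 was not, although PU.1 had 17 reads and C/EBPα 15. The 95% intervals, 14.0 to 38.6 for PU.1 and 9.47 to 27.9 for C/EBPα, overlap. The order of calls at this site thus rests on the calling rule and not on a lower PU.1 value. The log2 ratios of 48 h to 0 h were 3.66 for C/EBPα, 3.36 for C/EBPβ and 1.52 for PU.1, with 2 reads per 10M added to both values. In the sequence printed above, the C/EBP match lies upstream of the C/EBPα centre and a RUNX match downstream.

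The Irf8 -38.5 kb site (chr8:123221601-123222200) carried both C/EBP factors without PU.1. C/EBPα was 11.3 at 0 h, 27.7 at 10 min, 95.4 at 30 min, 97.8 at 60 min, 136 at 3 h, 114 at 12 h, 62.0 at 24 h and 95.5 at 48 h. C/EBPβ was 16.3 at 0 h, 37.6 at 3 h, 79.2 at 12 h, 131 at 24 h and 185 at 48 h (95% interval 150 to 227), the highest C/EBPβ value of the 6 loci. PU.1 stayed between 1.42 and 5.6 and was called at no time. Thus C/EBPα was high within 30 min, whereas C/EBPβ was highest in the last library.

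The Irf8 -34.2 kb site (chr8:123225801-123226200) was called for C/EBPα before induction. C/EBPα was 30.4 at 0 h (95% interval 20.1 to 44.3), 6.42 at 10 min, 13.8 at 30 min, 27.6 at 60 min, 81.8 at 3 h, 82.1 at 12 h, 43.5 at 24 h and 31.4 at 48 h. The values of 10, 30 and 60 min are those of the libraries from the other sequencer. The part of the sequencer in this course was not tested. C/EBPβ there was 16.3 at 0 h and 160 at 48 h, and PU.1 ranged from 25.5 to 62.4 and was called at all 5 times.

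**Figure D3:**
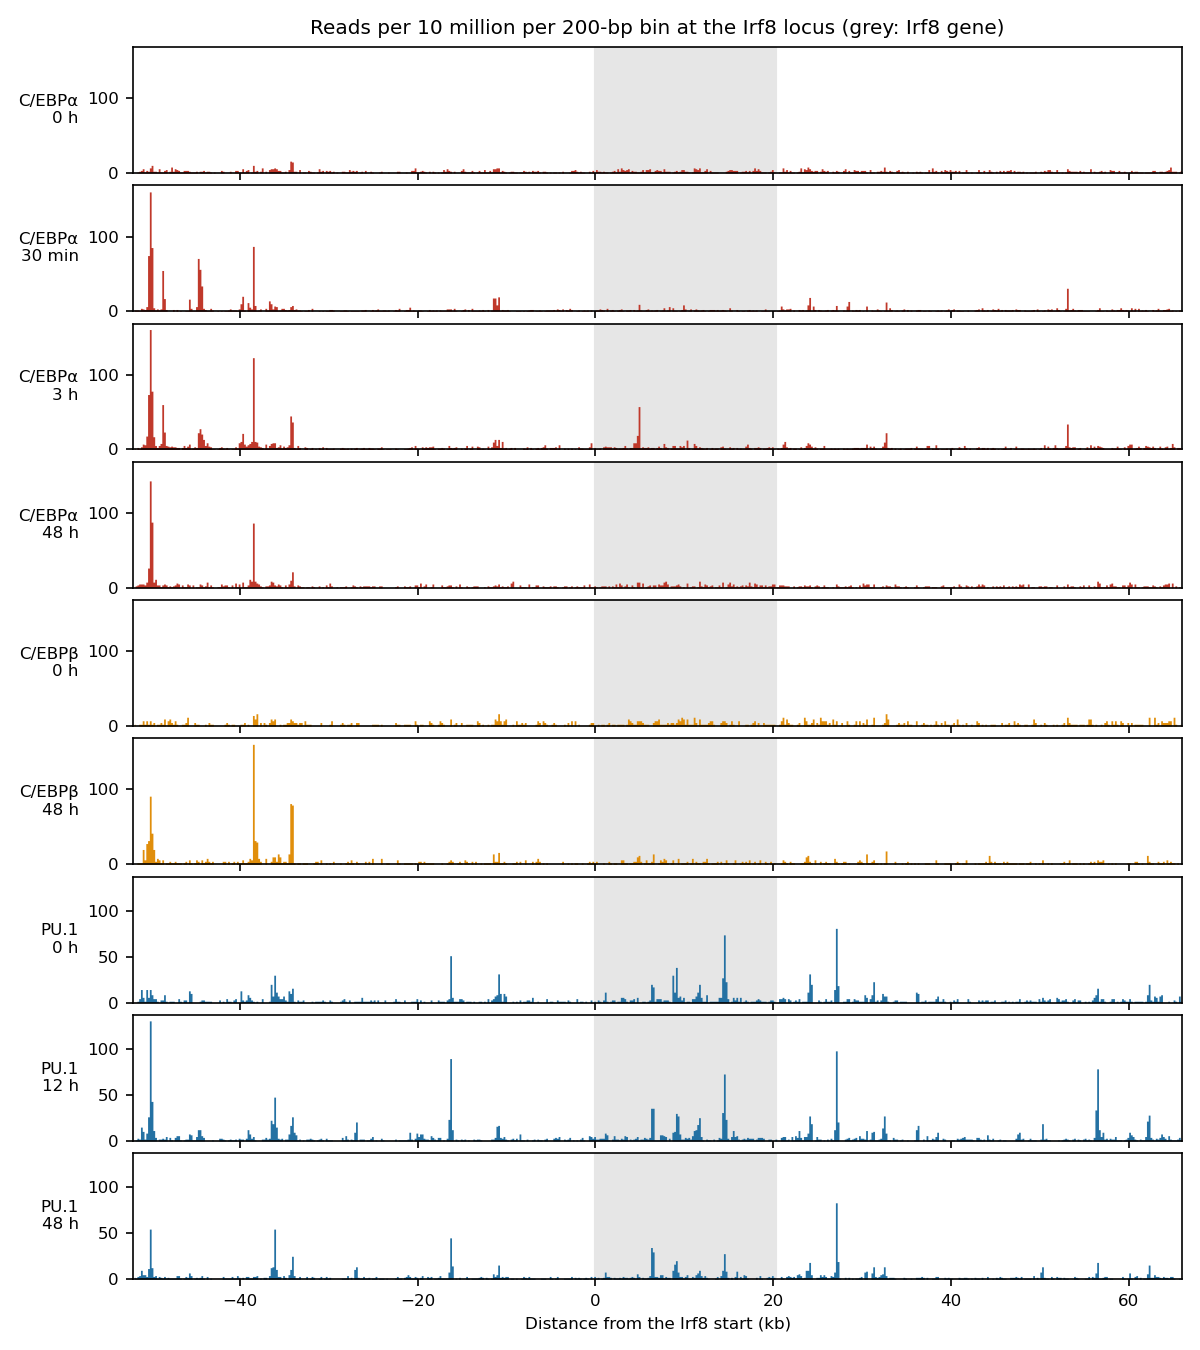
Reads per 10M in 200-bp bins (y axis, the same scale within a factor) against the distance from the Irf8 start in kb (x axis) in 9 libraries. The gene is shaded. C/EBPα and C/EBPβ peaks stand upstream at -50.1, -38.5 and -34.2 kb. Both factors were also called within the gene, at +4.9 kb, and downstream, at +32.6 kb. The PU.1 peaks of 0 h lie upstream, within and downstream of the gene.

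At 3 other Irf8 sites, chosen for mention after their values were seen, C/EBPα was highest between 30 min and 3 h. At -44.6 kb C/EBPα was 2.26 at 0 h, 21.7 at 10 min, 125 at 30 min, 89.6 at 60 min, 52.1 at 3 h, 38.5 at 12 h, 19.8 at 24 h and 6.28 at 48 h. At -48.7 kb it was 70.8 at 30 min, 82.4 at 60 min and 87.1 at 3 h, beside 3.77 at 48 h. Only the 60-min library passed the call there. Inside the gene, at +4.9 kb, it was 17.9 at 60 min, 73.7 at 3 h, 28.5 at 12 h, 10.6 at 24 h and 15.1 at 48 h. Of the 15 C/EBPα sites of Irf8, 10 (66.7%, beside 49.0% in the genome) were at least 2-fold lower at 48 h than at 3 h. At 48 h, 4 (26.7%, beside 22.6%) were called.

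PU.1 bound 21 sites at Irf8. Of these, 14 (66.7%, beside 42.6% in the genome) were called at 0 h and 10 (47.6%, beside 26.1%) at all 5 times. At 48 h against 0 h, 3 of the 21 were at least 2-fold higher and 3 lower, beside 24.5% and 15.4% in the genome. The 3 lower sites were +36.2, +14.4 and -10.9 kb, with log2 ratios of -2.00, -1.35 and -1.04. The site at +27.1 kb, also chosen after its values were seen, was nearly constant, at 110.6, 109.5, 121, 122 and 107 in order of time. The site at +56.5 kb, chosen after its values were seen, was 25.5 at 0 h, 31.9 at 3 h, 119 at 12 h, 55.5 at 24 h and 25.8 at 48 h, and C/EBPα there was called at 12 h alone, at 41.9. At -27.0 kb PU.1 was 2.84 at 0 h and 23.9 at 48 h. No site was called within 1 kb of the outermost start, where reads within 500 bp of the start did not exceed 17.1 for C/EBPα, 11.8 for C/EBPβ and 16.8 for PU.1 in any library. The 2 sites within 1 kb of another annotated start had PU.1 between 32.5 and 53.2 at +9.1 kb, called at all 5 times, and C/EBPα at no more than 17.4 at +9.9 kb.

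Irf2 (chr8:47825099-47932812, plus strand) had no other protein-coding gene in its window and the most sites for each of the 3 factors: 24 for C/EBPα, 16 for C/EBPβ and 30 for PU.1. These numbers are not per length: the Irf2 window was 207.7 kb long and the others 103.8 to 120.3 kb. C/EBPβ was called at 0 of the 16 Irf2 sites at 0 h and at all 16 at 48 h. Over the genome C/EBPβ was called at 713 of 14093 sites at 0 h and at 12051 at 48 h. The Irf2 start itself was bound, at -0.2 kb (chr8:47824601-47825200). PU.1 there was 118 at 0 h (95% interval 93.7 to 146), 175 at 3 h, 201 at 12 h, 106 at 24 h and 58.3 at 48 h (44.6 to 74.9). C/EBPα was 15.8 at 0 h, 19.7 at 10 min, 54.6 at 30 min, 48.1 at 60 min, 50.3 at 3 h, 78.7 at 12 h, 50.1 at 24 h and 61.6 at 48 h. C/EBPβ was 9.34 at 0 h and 47.3 at 48 h. The 0-h and 48-h intervals do not overlap for any of the 3 factors, PU.1 being lower and both C/EBP factors higher at 48 h. However, the centre of each factor was set by the libraries that called it. For C/EBPβ this was 48 h alone, and for C/EBPα 0 h was not among them. The C/EBP differences from 0 h are therefore partly built in and are no test. In the printed sequence the overlapping ETS-IRF and ISRE matches lie at the PU.1 centre.

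The strongest Irf2 site was intergenic, at +146.6 kb (chr8:47971401-47972000), with 2 C/EBP matches in the printed stretch. PU.1 was 242 at 0 h, 272 at 3 h, 188 at 12 h, 127 at 24 h and 140 at 48 h. C/EBPα was 23.7 at 0 h, 24.5 at 10 min, 83.1 at 30 min, 88.0 at 60 min, 112 at 3 h, 126 at 12 h, 88.3 at 24 h and 102 at 48 h. C/EBPβ was 11.7 at 0 h, 56.5 at 3 h, 72.3 at 12 h, 86.4 at 24 h and 102 at 48 h. C/EBPα and PU.1 were called in every library there, which held for no other site of the 6 loci for both factors.

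The intronic Irf2 +38.6 kb site was low for all 3 factors at 0 h and high for all 3 later. PU.1 was 5.67 at 0 h, 44.1 at 3 h, 123 at 12 h, 99.6 at 24 h and 77.4 at 48 h. C/EBPα was between 2.81 and 8.19 up to 60 min, 28.8 at 3 h, 62.0 at 12 h, 46.1 at 24 h and 20.1 at 48 h, and C/EBPβ 2.34, 6.84, 37.9, 54.4 and 49.3 in order of time. Both C/EBPα and PU.1 were first called at 3 h. At the intronic +71.7 kb site C/EBPα was called from 10 min and was 74.7 at 60 min against 9.02 at 0 h. PU.1, not measured between 0 and 3 h, was 15.6 at 0 h, 42.6 at 3 h and 51.6 at 48 h. At +89.2 kb C/EBPβ was 7.0 at 0 h and 100.5 at 48 h, while C/EBPα was 3.38 at 0 h, 51.2 at 3 h, 45.2 at 12 h, 40.9 at 24 h and 21.4 at 48 h.

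PU.1 at Irf2 differed in both directions. At least 4-fold higher values at 48 h than at 0 h, with at least 20 reads per 10M at 48 h, were found at +154.7 kb (4.25 and 94.6, with a PU.1 consensus match), +53.1 kb (8.51 and 72.6) and +78.6 kb (2.84 and 21.0), beside +38.6 kb. C/EBPα was called at none of these 3. C/EBPβ was called at 1 of them, +78.6 kb, at 24 and 48 h, where it was 61.1 at 48 h, a log2 ratio to 0 h of 4.98. It had no reads there at 0 h, so the size of this ratio depends on the 2 reads per 10M added. The PU.1 values of 4.25 and 2.84 at 0 h rest on at most 3 reads. The opposite was found at +64.4 kb, where PU.1 was 78.0 at 0 h, 59.3 at 3 h, 23.3 at 12 h, 6.17 at 24 h and 9.56 at 48 h. Of the 30 PU.1 sites of Irf2, 12 were at least 2-fold higher and 4 lower at 48 h (40.0% and 13.3%, beside 24.5% and 15.4% in the genome). At +112.1 kb C/EBPα peaked at 30 min, at 108, and was 11.3 at 0 h and 30.2 at 48 h, with PU.1 between 119 and 169.

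**Figure D4:**
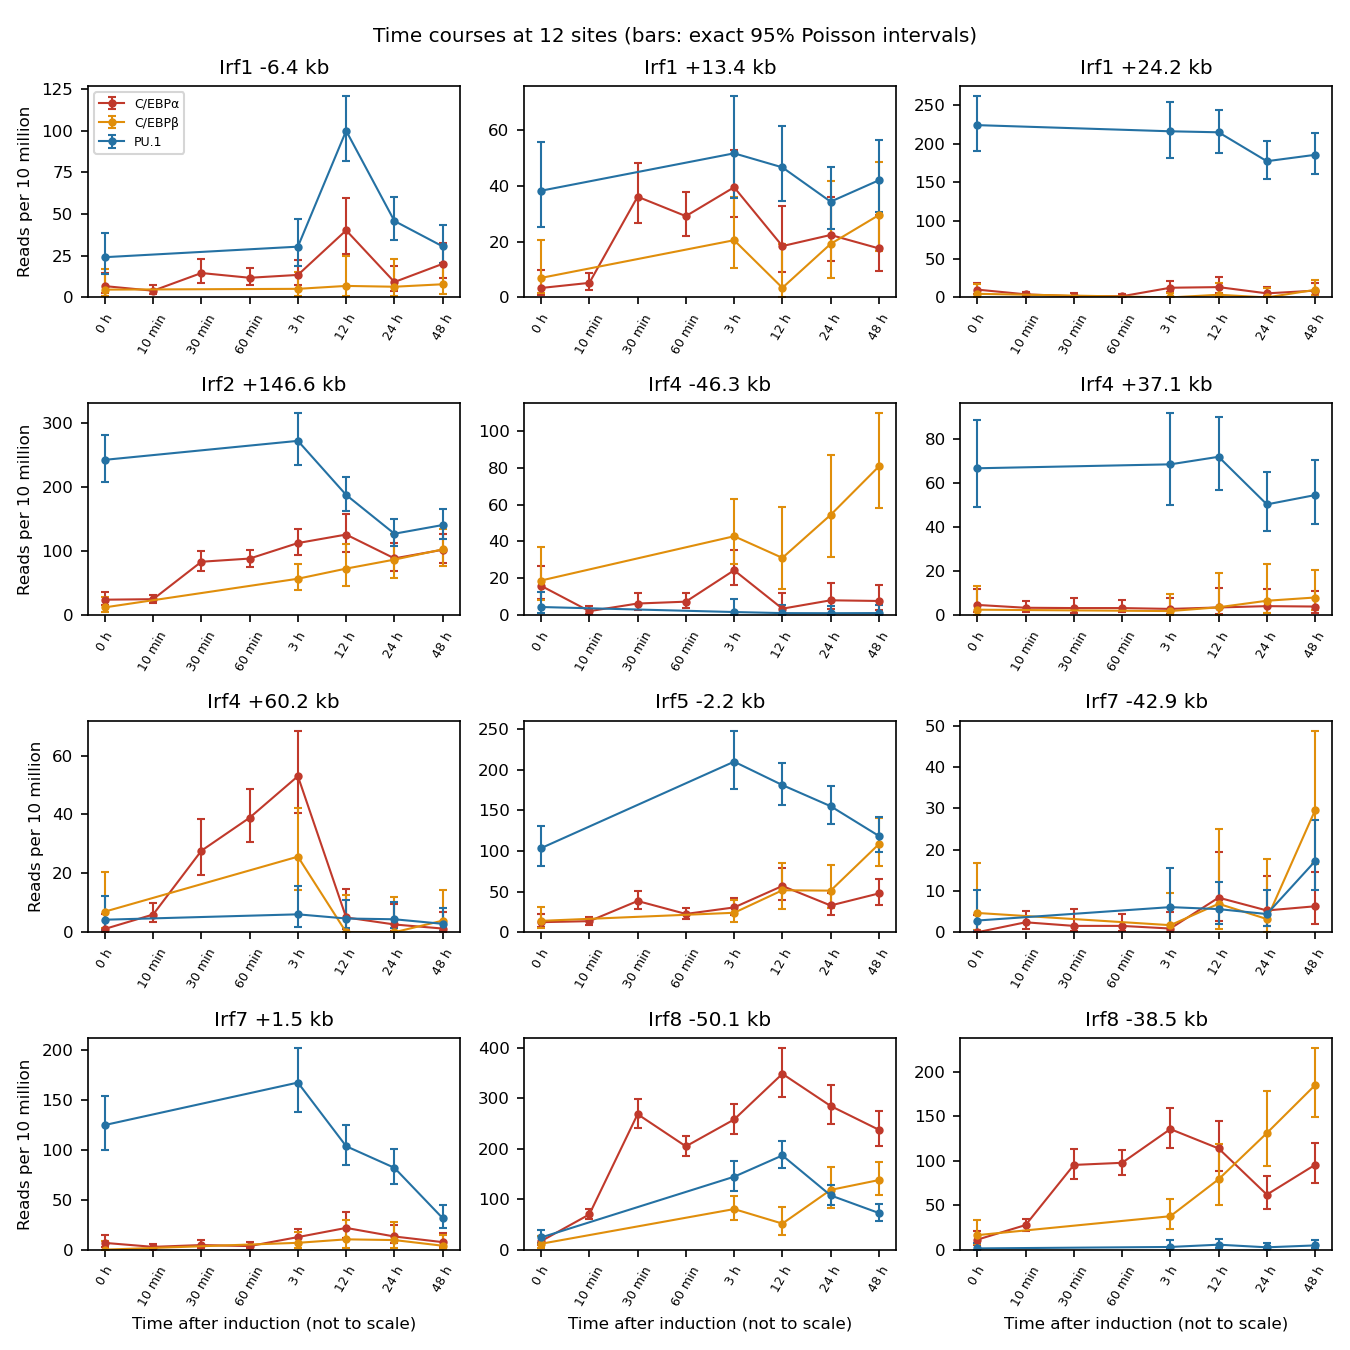
Reads per 10M within 200 bp of the centre (y axis) over time (x axis, not to scale) at the 12 sites that were highest for a factor at their locus, with exact 95% Poisson intervals as bars. Each point is 1 library. At Irf8 -50.1 kb C/EBPα is at 268 by 30 min, whereas at Irf8 -38.5 kb C/EBPβ is highest at 48 h, at 185.

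Irf4 (chr13:30841095-30858796, plus strand) was the only locus of the 6 with no C/EBPα site called at 48 h. Of all gene windows, 38.1% had such a site. The distinction rests on the threshold: the single 48-h site of Irf1 had 14 reads, and a call needed at least 10 in a bin. Of the 9 C/EBPα sites of Irf4, 7 (77.8%, beside 57.9% in the genome) were called at some time from 10 min to 3 h and at none of 12, 24 and 48 h. Of the 7, 1 site, at -46.3 kb, was also called at 0 h. The strongest of the 9, at +60.2 kb, was intergenic. C/EBPα there was 1.13 at 0 h (95% interval 0.0286 to 6.28), 6.02 at 10 min, 27.7 at 30 min, 38.9 at 60 min, 53.0 at 3 h, 5.02 at 12 h, 2.64 at 24 h and 1.26 at 48 h. C/EBPβ was 7.0 at 0 h, 25.7 at 3 h, 0 at 12 and 24 h and 3.94 at 48 h, so both C/EBP factors were highest at 3 h, and PU.1 did not exceed 6.08. The 95% intervals of the 2 counts of 0 reach 12.7 reads per 10M at 12 h and 11.8 at 24 h. Another site, at +65.3 kb (chosen after its values were seen), was called for C/EBPα from 60 min to 24 h. C/EBPα there was 52.1 at 3 h, 31.8 at 12 h, 31.6 at 24 h and 8.80 at 48 h.

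The C/EBPβ site of Irf4 at -46.3 kb, in an intron of the neighbouring phosphatase gene Dusp22, took another course. C/EBPβ was 18.7 at 0 h, 42.8 at 3 h, 31.0 at 12 h, 54.4 at 24 h and 80.8 at 48 h (95% interval 58.0 to 110). C/EBPα was 15.8 at 0 h, 24.3 at 3 h and 7.54 at 48 h, and PU.1 was at 4.25 or less throughout. The highest PU.1 site of Irf4, +37.1 kb, was 66.7, 68.4, 71.9, 50.2 and 54.5 in order of time. At +20.2 kb PU.1 was 4.25 at 0 h and 28.7 at 48 h. Of the 12 PU.1 sites of Irf4, 4 were at least 2-fold higher and 3 lower at 48 h, beside 24.5% and 15.4% in the genome. No site was called within 1 kb of the Irf4 start.

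Irf1 (chr11:53583516-53591876, plus strand) had 13 PU.1 sites, 11 of them called at 0 h (84.6%, beside 42.6% in the genome). In an intron of the gene model Gm12216, 24.2 kb downstream of the Irf1 start, PU.1 was 224 at 0 h, 216 at 3 h, 215 at 12 h, 177 at 24 h and 185 at 48 h. In an Irf1 intron that overlaps a coding exon of the model Gm17334, at +2.8 kb, it was 206, 175, 197, 152 and 161. The intervals of 0 and 48 h overlap at both sites, and neither was called for C/EBPα or C/EBPβ. The intronic +4.8 kb site was the only PU.1 site of Irf1 at least 2-fold higher at 48 h, with 2.84 at 0 h, 6.08 at 3 h, 27.1 at 12 h, 37.9 at 24 h and 42.0 at 48 h, and holds an ETS-IRF match.

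At Irf1, 1 of 6 C/EBPα sites (16.7%, beside 22.6% in the genome) was called at 48 h. That site, at +13.4 kb, was 3.38 at 0 h, 36.1 at 30 min, 39.5 at 3 h and 17.6 at 48 h for C/EBPα, beside PU.1 between 34.4 and 51.7. At -6.4 kb both factors were highest at 12 h, C/EBPα at 40.2 and PU.1 at 99.9, against 6.77 and 24.1 at 0 h. At 48 h C/EBPα at -6.4 kb was 20.1, which was not called although above the 17.6 of the called site. Near the start, at +0.7 kb, C/EBPα was 20.5 at 60 min and 5.03 at 48 h.

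Irf5 (chr6:29476625-29491869, plus strand) had 7 sites, all bound by PU.1, beside 59215 of 76974 sites in the genome. PU.1 was called at all 5 times at 5 of the 7 (71.4%, beside 26.1%). The main one lay at -2.2 kb (chr6:29473401-29474600), where the C/EBP match printed above is at the C/EBPβ centre. PU.1 was 104 at 0 h, 210 at 3 h, 181 at 12 h, 155 at 24 h and 118 at 48 h. C/EBPβ was 14.0 at 0 h, 24.0 at 3 h, 51.7 at 12 h, 51.2 at 24 h and 108 at 48 h, and C/EBPα 12.4 at 0 h, 38.5 at 30 min, 56.9 at 12 h and 47.8 at 48 h. At +3.7 kb PU.1 was 56.7 at 0 h and 25.8 at 48 h, a log2 ratio of -1.08, whereas at +2.6 kb, which has an ETS-IRF match, it was 58.1 and 40.1. At +10.3 kb PU.1 was 52.5 at 0 h and 16.2 at 48 h, a log2 ratio of -1.58. Of the 7 PU.1 sites, 2 were thus at least 2-fold lower at 48 h and 0 higher, beside 15.4% and 24.5% in the genome.

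Irf7 (chr7:148448605-148452380, minus strand) shares its window with 7 other protein-coding genes, and 3 of its 11 sites had an Irf7 start as the nearest start. Inside the gene, at +1.5 kb, PU.1 was 125 at 0 h (95% interval 100.1 to 154), 167 at 3 h, 104 at 12 h, 81.9 at 24 h and 31.5 at 48 h (21.7 to 44.3). Upstream, at -2.6 kb in an untranslated exon of Cdhr5 (chosen after its values were seen), PU.1 was 25.5 at 0 h, 50.2 at 3 h, 136 at 12 h, 100.4 at 24 h and 69.8 at 48 h. PU.1 was thus lower at 48 h within the gene and higher next to it. C/EBPα did not exceed 21.8 in any library at +1.5 kb and 17.6 at -2.6 kb, and C/EBPβ was called at a single Irf7 site, -42.9 kb, at 29.6 at 48 h.

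**Figure D5:**
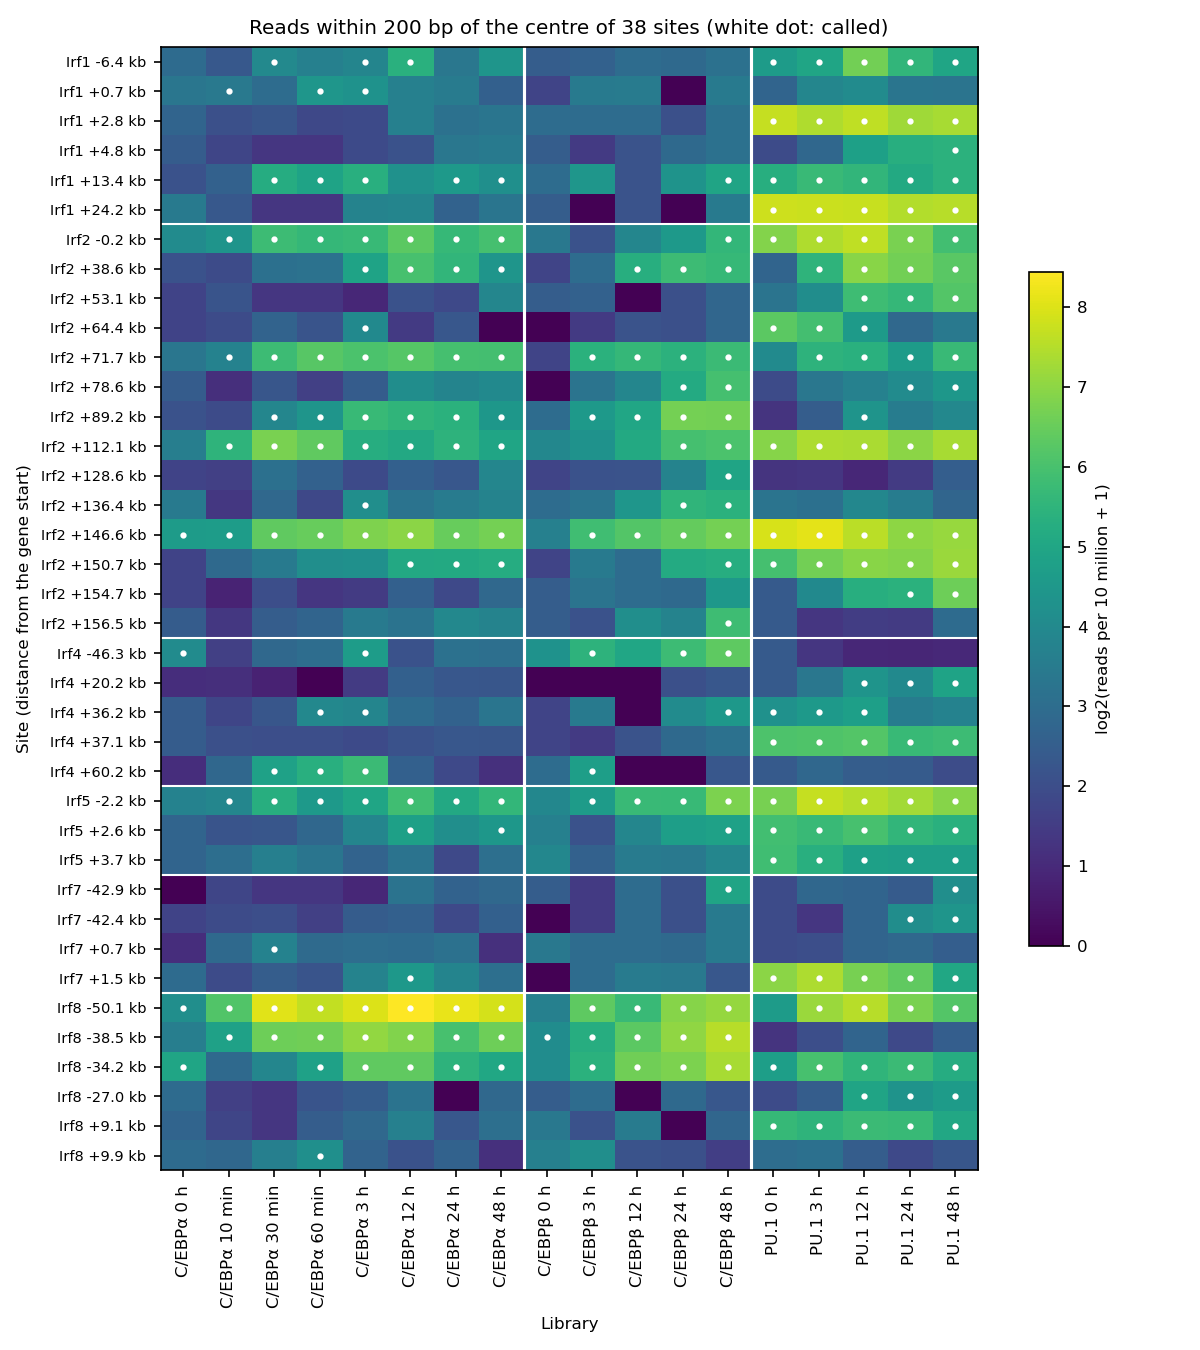
Reads per 10M within 200 bp of the centre, as log2 of the value plus 1 (colour), at 38 sites (rows, grouped by locus) in the 18 libraries (columns). White dots mark libraries in which the site was called. C/EBPα calls of Irf4 end before 48 h, whereas those of Irf8 at -50.1 kb run through all 8 libraries.

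Consensus matches were counted within 75 bp of the centre. The C/EBP sequence was present at 20 of 60 C/EBPα sites (33.3%, beside 32.6% in the genome) and 15 of 34 C/EBPβ sites (44.1%, beside 41.1%). The PU.1 sequence was present at 21 of 93 PU.1 sites (22.6%, beside 23.5%), the ETS-IRF element, which an IRF protein and PU.1 can share, at 17 (18.3%, beside 14.1%) and the ISRE at 6 (6.45%, beside 6.53%). AP-1 matches were present at 10 PU.1 sites (10.8%, beside 8.22%), 6 C/EBPα sites (10.0%, beside 7.17%) and 3 C/EBPβ sites (8.82%, beside 12.0%). RUNX matches were present at 5 PU.1 sites (5.38%, beside 4.75%), 8 C/EBPα sites (13.3%, beside 8.54%) and 2 C/EBPβ sites (5.88%, beside 7.46%). EBF1 matches were present at 6 PU.1 sites (6.45%, beside 3.67%), 2 C/EBPα sites (3.33%, beside 7.44%) and 0 C/EBPβ sites (beside 3.97%). The promoter sites with an ETS-IRF match were those of Irf2 at -0.2 kb, Irf5 at +2.6 kb and Irf7 at +1.5 kb.

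Other genes of the IRF pathway were taken from a fixed list of 25, of which 24 were matched by symbol: IRF genes such as Irf3 and Irf9, partners and co-regulators such as Batf3 and Spib, and signalling genes from receptors (Ifnar1, Ifngr1) to kinases and STAT factors. Their windows held 302 sites, with 10 at Irf3 and 12 at Irf9. PU.1 was called at 0 h in 23 of the 24 windows and C/EBPα at 48 h in 22, beside 71.6% and 38.1% of all gene windows. At 48 h against 0 h, C/EBPα was at least 2-fold higher at 44 and lower at 6 of 118 sites (37.3% and 5.08%, beside 33.0% and 7.52% in the genome). C/EBPβ was higher at 51 and lower at 0 of 61 (83.6% higher, beside 84.9%), and PU.1 higher at 63 and lower at 27 of 257 (24.5% and 10.5%, beside 24.5% and 15.4%). No C/EBPα site was called at 48 h at Irf3, which had no C/EBPα or C/EBPβ site at least 2-fold higher at 48 h, while 3 C/EBPα sites were at least 2-fold higher at Irf9.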

How the data were processed

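Each of the 18 deposited files lists read positions by chromosome, start, end and strand. Per the study's methods, the authors used ELAND or Bowtie and the mm9 genome, allowed no mismatch, and kept unique reads without identical copies. Their regions came from HOMER, which was not used here. Reads were moved 75 bp inward from the 5′ end, 1 per position and strand, and sites were called with Python 3.11.15, numpy 2.4.6, pandas 2.3.3 and scipy 1.17.1 in steps tested on simulated data. The genome size was set to 2000000000 bp. No input library was used, so local background was taken from the same library.

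The 6 genes, the gene list, the consensus sequences and the site rules were chosen with earlier results of these data known. Sites were named if highest for a factor at a locus, within 1 kb of an annotated start of the gene, or at least 4-fold different between 0 and 48 h with at least 20 reads per 10M in the higher library. Counting sites that only overlap a window, and a centre for each factor, were chosen after seeing the data. Not every gene of the list is reported here singly. Sequences and gene models are those of mm9. Alternatives covered calling thresholds, depth, scaling, widths and flanks.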

Additional observations from a re-analysis of the deposited data

How the results depend on the processing

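No paired analysis was possible because each factor and time point has 1 library. Of 150 recomputed counts, 119 stayed within 1.5 times the reported count, including all those without the C/EBPα libraries of 10, 30 and 60 min or without the PU.1 library of 12 h (both chosen after seeing the data). With a count minimum 1.5 times higher, 16 sites had C/EBPβ and 9 had C/EBPα at 48 h, against 34 and 18. With libraries thinned to the smallest of the factor, 22 had C/EBPβ. With 25 kb on either side, there were 82 sites, 22 with C/EBPβ and 11 with C/EBPα at 48 h. Asking for 3-fold instead of 2-fold, C/EBPα was higher at 22 and lower at 0 sites at 60 min against 0 h, 15 and 0 at 48 against 0 h, and lower at 14 and higher at 0 at 48 against 3 h. At 3-fold, C/EBPβ was lower at 0 sites, and PU.1 was higher at 2 and lower at 0 at 3 h and lower at 8 at 48 h. With 0.5 reads added, C/EBPα was lower at 3 sites (60 min) and 8 sites (48 against 0 h) and higher at 4 (48 against 3 h). With 5 added, these were 0 for 48 against 0 h and 0 for 48 against 3 h, C/EBPβ was lower at 0, and PU.1 at 3 h was higher at 8 and lower at 0. Within 100 bp, C/EBPα was lower at 3 (60 min) and 1 (48 against 0 h) and higher at 3 (48 against 3 h), and PU.1 was lower at 2 at 3 h. Within 500 bp, C/EBPβ was lower at 1 and PU.1 at 3 h at 0. With all reads as deposited, C/EBPα was higher at 0 at 48 against 3 h. Of the recomputed log2 ratios at the named sites, 291 stayed within counting error of the reported ratio. Among them, the C/EBPα ratios of 48 against 0 h at Irf7 +0.7 kb, Irf8 -34.2 kb, Irf1 +0.7 kb and Irf4 +60.2 kb, reported at under 2-fold, changed sign with another width or, at Irf8 -34.2 kb, also with all reads. Of those reported at 2-fold or more, 1 changed sign: C/EBPα at Irf8 +9.9 kb, 48 against 0 h, was 0.058 within 100 bp against -1.43 as reported. The cause was not tested. Of the recomputed reads per 10M, 244 stayed within the 95% interval of the reported value and 48 did not: 25 within 100 bp, 18 within 500 bp, 4 with scaling to reads outside bound sites and 1 with all reads as deposited.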
